A study of Mus musculus with 2 samples.

Results

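The genes described here make fatty acids and assemble them into glycerolipids, and were chosen by name, as 39 listed symbols that cover acetyl-CoA supply and chain synthesis, desaturation, elongation, activation, triglyceride assembly and transcriptional control. All 39 had a row among the 23282 rows of both count tables, and 31 of them were measured, meaning that their counts summed to at least 40 over the 2 libraries. RNA came from 3T3-L1 cells, a clonal fibroblast line from mouse that differentiates into fat cells under hormone treatment and that the labels call adipocytes. A culture given an siRNA against Pink1, a kinase that accumulates on damaged mitochondria and starts their clearance, was set against a culture given a control siRNA, with 1 library each. Both were sequenced from the 3′ ends of transcripts, and no strain, animal age, other agent, siRNA sequence, time after transfection or day of differentiation was given in the sources used here.

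Fat cells build palmitate in the cytosol from acetyl-CoA, which ATP citrate lyase and acetyl-CoA synthetases supply, through acetyl-CoA carboxylase and fatty acid synthase. Elongases and desaturases reshape the chain, and long-chain acyl-CoA synthetases activate it. Acyltransferases then load acyl chains onto glycerol 3-phosphate, lipins remove the phosphate of phosphatidate, and diacylglycerol acyltransferases add the last chain to give triglyceride. SREBP-1c, ChREBP and the Spot 14 protein raise this programme when insulin and glucose are plentiful.

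The Pink1 siRNA library held 14214768 counts and the control siRNA library 13803174, and since each group is 1 library, intervals reflect counting error alone and replicates could not be compared. Pink1 had 351 counts in the Pink1 siRNA library and 511 in the control siRNA library, a ratio of 0.687 (95% counting interval 0.598 to 0.788). Widened for the spread between the libraries, as explained below, the interval was 0.445 to 1.05 and included 1, and 23 of the 583 genes of its level were as low or lower. Adipocyte markers were present in both libraries, and all 15 listed were measured, with a summed level of 3163 CPM (counts scaled to the effective library size) in the Pink1 siRNA library and 2923 CPM in the control siRNA library. Their log2 ratios lay between -0.96 (Slc2a4) and 0.58 (Retn), 7 of the 15 had a ratio below 1, and the median log2 ratio was 0.05. The preadipocyte and fibroblast markers, 11 of 12 measured, summed to 33048 CPM in the Pink1 siRNA library and 31557 CPM in the control siRNA library. Of these 11, 2 had a ratio below 1, against 48.9% of all measured genes. The widened interval lay above 1 for 3, Dlk1 (ratio 1.12), Col1a1 (1.15) and Thy1 (1.47), and below 1 for 0. Over all measured genes these shares were 2.09% and 2.01%. Among the 583 genes of each one's level, 195 were as high or higher for Dlk1, 156 for Col1a1 and 8 for Thy1. The adipocyte sum rests mostly on a few abundant genes such as Fabp4 (16749 counts in the Pink1 siRNA library and 14673 in the control siRNA library). The preadipocyte and fibroblast sum rests mostly on Col1a2, Dlk1, Col3a1 and Col1a1. These were at 10655, 9329, 6379 and 4564 CPM in the Pink1 siRNA library and 11469, 8326, 5841 and 3972 CPM in the control siRNA library. Plin1 was 1.64-fold and Slc2a4 1.94-fold lower in the Pink1 siRNA library, while Retn (ratio 1.49) and Cd36 (1.35) were higher. The widened intervals of all 15 adipocyte markers included 1. Of 5 endothelial markers, 4 were at 0 in both libraries, and 6 macrophage markers summed to 3.28 CPM in the Pink1 siRNA library and 4.43 CPM in the control siRNA library. Of 6 osteoblast markers, 3 were at 0 in both libraries and 1 was measured. That gene, Runx2, had 217 counts in the Pink1 siRNA library and 419 in the control siRNA library (1.93-fold lower, widened interval of the ratio 0.315 to 0.835), and it overlaps Supt3. The 4 hepatocyte markers summed to 1 count in the Pink1 siRNA library and 14 in the control siRNA library. The part of all these markers in the results below was not tested. In such bulk RNA, fewer cells of a type and less RNA per cell cannot be told apart.

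The fatty acid and glycerolipid genes were on the whole slightly lower in the Pink1 siRNA library, and a few acyltransferase and lipin genes lay further from 1, in both directions. Of the 31 measured, 23 had a ratio below 1, against 48.9% of all 11660 measured genes. Their median log2 ratio was -0.11, a level 1.08-fold lower, with a median of 0.00 over all measured genes and of 0.00 over the 9428 genes in the same range of level. No gene of the 31 was called higher and none lower by the rule of size, which asks for a ratio of at least 2 either way and a counting interval that leaves out 1 (background 1.63% higher and 2.39% lower). At a ratio of 1.5, 2 were higher and 1 lower (background 5.43% and 6.64%). Ratios closer to 1 than 5 to 4 either way were seen for 24 of the 31, or 77.4%, against 66.9% of all measured genes. With no size asked for, the counting interval lay above 1 for 6 genes and below 1 for 10 (background 26.2% and 24.9%).

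The spread between these libraries was larger than counting error for genes of every level. A second interval was therefore widened for the excess spread among the genes in the same twentieth of mean level (583 genes each). For the measured genes described here, the widening divided both counts by a factor of 6.28 to 32.5. The widened interval lay above 1 for Lpin1 and Agpat4 and below 1 for Agpat5 (background 2.09% and 2.01%), and it included 1 for the other 28. Summed over all 39 genes, the level was 1895 CPM in the Pink1 siRNA library and 2004 CPM in the control siRNA library, a ratio of 0.946 (counting interval 0.930 to 0.962).

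**Figure D1:**
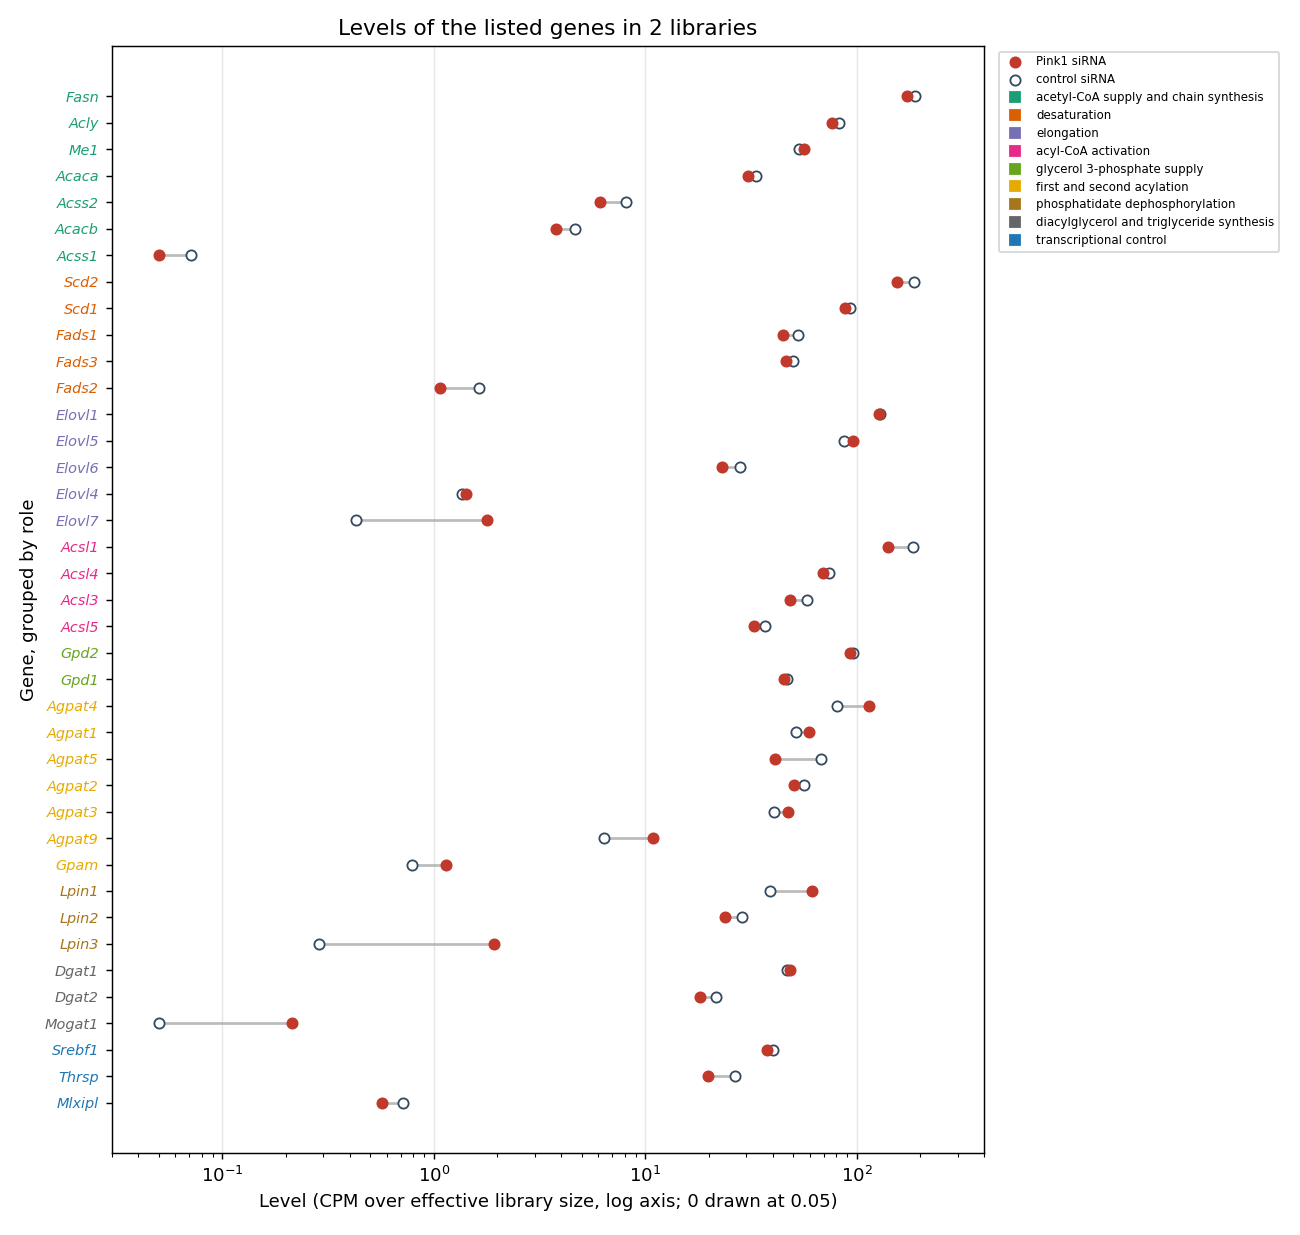
Level of each of the 39 genes in CPM over effective library size (log axis), grouped by role, with filled points for the Pink1 siRNA library and open points for the control siRNA library, 1 library each. Measured genes lay between 3.78 and 172 CPM in the Pink1 siRNA library and between 4.64 and 188 CPM in the control siRNA library, while 8 genes had too few counts to be measured; a count of 0 is drawn at 0.05.

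The genes of the fatty acid side lay mostly below a ratio of 1 and those of the glycerolipid side on both sides of it. Of the 17 measured genes that make, shape or activate fatty acids, 15 had a ratio below 1, with a median log2 ratio of -0.14 and a summed ratio of 0.901 (counting interval 0.883 to 0.920). Of the 12 measured glycerol 3-phosphate dehydrogenase and glycerolipid assembly genes, 6 lay below and 6 above. Their median was 0.00 and their summed ratio 1.06 (1.03 to 1.09). These 2 unions of roles were formed after values had been seen, and their difference was not tested.

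**Figure D2:**
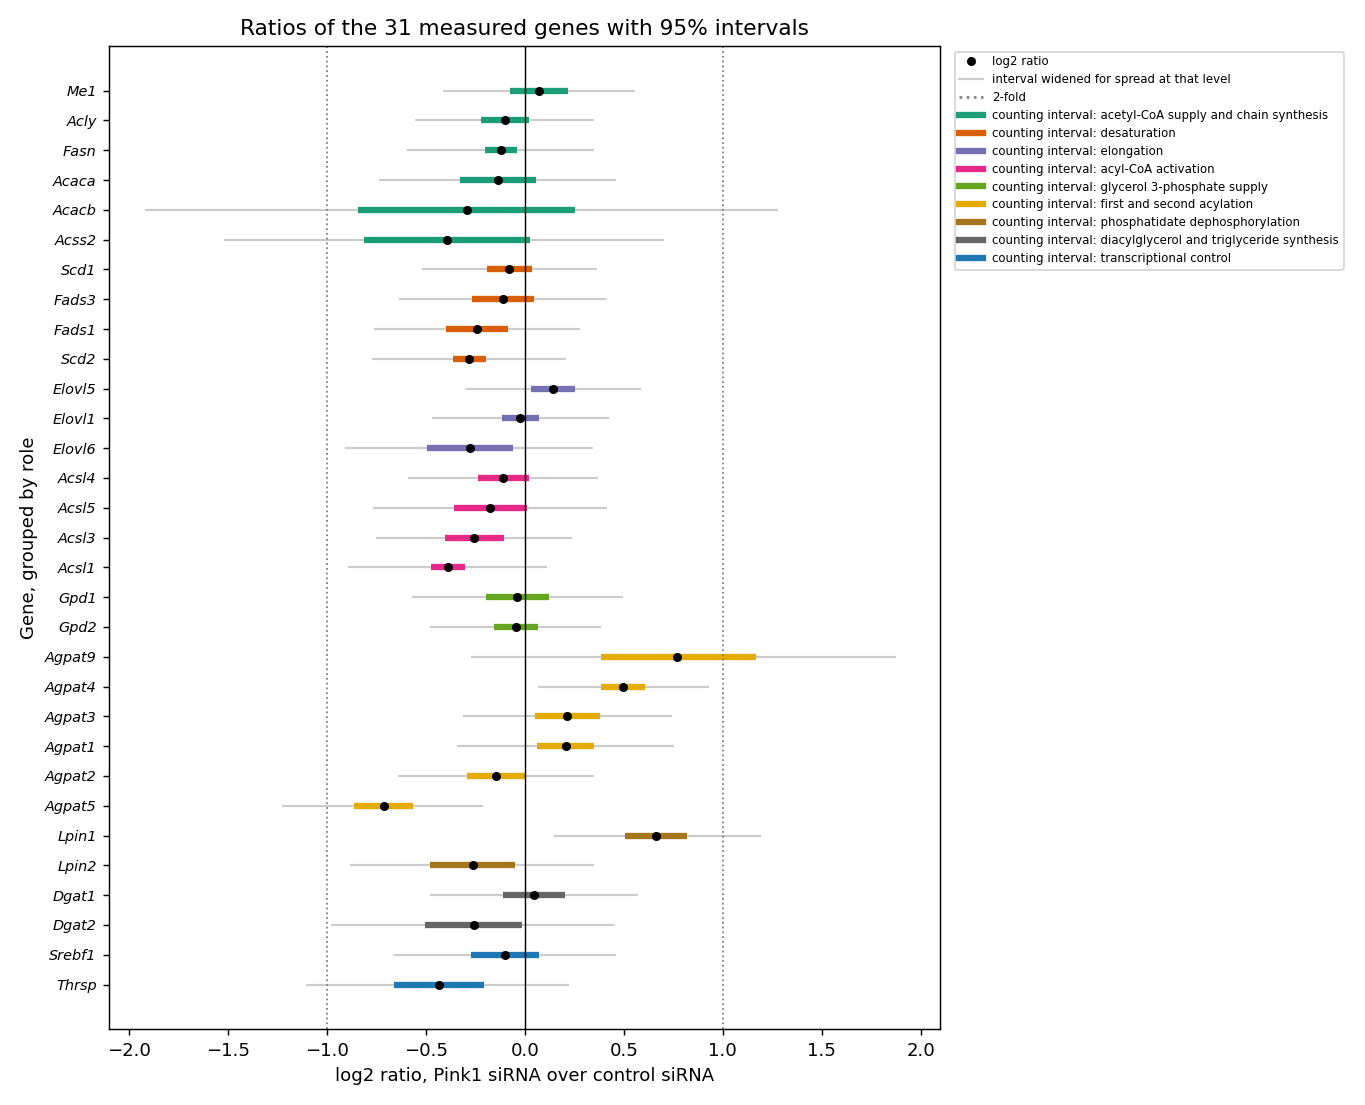
log2 ratio of Pink1 siRNA over control siRNA for the 31 measured genes (points), with the 95% counting interval (coloured bars) and the widened interval (grey lines); dotted lines mark a 2-fold difference. No point reaches 2-fold, and the widened interval leaves out a log2 ratio of 0 for Lpin1 and Agpat4 on the higher side and for Agpat5 on the lower side.

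Promoter windows are shown for Lpin1 and Agpat4, the genes with a widened interval above 1, for Acsl1 and Thrsp, which were among the lowest ratios, and for Fasn, the central enzyme of the pathway, whose ratio was close to 1. No window is shown for Agpat5, the gene with a widened interval below 1. SREBP proteins bind sterol regulatory elements, often beside CCAAT boxes that hold their partner NF-Y. The windows come from RefSeq (GRCm38.p6, the assembly behind mm10), cover 250 bases before to 50 after a start, and are written 5′ to 3′ on the gene's strand. Capitals mark a sterol element (TCACNCCAC) or a CCAAT box (CCAAT), each searched on both strands, so that GTGGGGTGA and ATTGG are the same motifs read on the other strand.
Fasn, chr11:120824498-120824797, minus strand: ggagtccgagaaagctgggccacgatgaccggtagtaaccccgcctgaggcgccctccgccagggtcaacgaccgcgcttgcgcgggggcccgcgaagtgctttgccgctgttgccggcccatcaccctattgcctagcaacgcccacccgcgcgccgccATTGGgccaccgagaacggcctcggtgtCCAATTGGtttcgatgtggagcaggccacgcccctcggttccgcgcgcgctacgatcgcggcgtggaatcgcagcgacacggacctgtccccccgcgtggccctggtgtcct
Acsl1, chr8:46490716-46491015, plus strand, the downstream of its 2 listed starts: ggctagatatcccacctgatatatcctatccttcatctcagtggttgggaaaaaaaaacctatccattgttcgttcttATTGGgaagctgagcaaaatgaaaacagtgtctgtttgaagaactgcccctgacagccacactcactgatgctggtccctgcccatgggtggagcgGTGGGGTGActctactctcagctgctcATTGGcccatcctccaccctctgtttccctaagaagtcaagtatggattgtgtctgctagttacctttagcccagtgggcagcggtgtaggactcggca
Thrsp, chr7:97417501-97417800, minus strand: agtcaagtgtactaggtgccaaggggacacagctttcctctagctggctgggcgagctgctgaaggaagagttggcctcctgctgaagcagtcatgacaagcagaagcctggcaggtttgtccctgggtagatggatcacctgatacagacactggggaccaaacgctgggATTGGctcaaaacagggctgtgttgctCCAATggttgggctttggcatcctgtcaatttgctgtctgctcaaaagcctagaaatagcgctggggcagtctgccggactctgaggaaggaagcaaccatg
Lpin1, chr12:16610917-16611216, minus strand: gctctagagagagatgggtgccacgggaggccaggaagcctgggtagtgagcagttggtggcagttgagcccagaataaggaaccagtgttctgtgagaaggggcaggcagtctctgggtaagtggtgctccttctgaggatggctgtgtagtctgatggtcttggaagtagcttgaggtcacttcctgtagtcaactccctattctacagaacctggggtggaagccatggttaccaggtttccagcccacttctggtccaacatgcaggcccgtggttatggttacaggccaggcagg
Agpat4, chr17:12119034-12119333, plus strand: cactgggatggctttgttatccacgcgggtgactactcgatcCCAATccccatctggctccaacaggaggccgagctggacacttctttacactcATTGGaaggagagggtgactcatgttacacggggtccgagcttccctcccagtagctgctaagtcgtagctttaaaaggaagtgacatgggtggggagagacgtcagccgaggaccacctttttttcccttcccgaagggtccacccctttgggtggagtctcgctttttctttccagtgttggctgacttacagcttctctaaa

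In the Fasn window CCAAT boxes begin at -90, -62 and -59 from the start, the last 2 overlapping. The Acsl1 window holds a sterol element at -76 between CCAAT boxes at -172 and -49, while the window at its upstream start (chr8:46470787-46471086) holds neither motif. The Thrsp window holds CCAAT boxes at -79 and -52. Agpat4 has CCAAT boxes at -208 and -155, and neither motif is in the Lpin1 window. The Fasn, Agpat4 and Lpin1 windows lie at internal starts of their genes, that of Lpin1 furthest inside. Over all 32851 windows in the table, 1.24% held the sterol element and 37.4% a CCAAT box. Of the 44 windows of the 32 listed genes that have any, 4.55% held the sterol element (2 windows, of Acsl1 and Mlxipl) and 47.7% a CCAAT box (21 windows). An E-box (CACGTG) and a GC box (GGGCGG) were also searched and are not marked above. The E-box was in 7.15% of all windows and 11.4% of the 44 (5 windows). The GC box was in 35.7% of all windows and 56.8% of the 44 (25 windows). A match describes letters in the window, and 3′ tags do not show which start was used.

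Among the genes for acetyl-CoA supply and chain synthesis, 5 of 6 measured had ratios below 1, by small amounts. Fasn, fatty acid synthase, had the highest 3′ tag level, at 172 CPM in the Pink1 siRNA library and 188 CPM in the control siRNA library (2416 and 2630 counts). Its ratio of 0.919 had a counting interval of 0.869 to 0.971 and a widened interval of 0.661 to 1.27. Among the 583 genes of its twentieth of level, 119 were as low or lower, so Fasn was low but not at the edge. Acly, the lyase that turns citrate into acetyl-CoA, had 1071 counts in the Pink1 siRNA library and 1150 in the control siRNA library, a log2 ratio of -0.10. Acaca, the cytosolic acetyl-CoA carboxylase that commits carbon to synthesis, had 427 counts in the Pink1 siRNA library and 469 in the control siRNA library, a log2 ratio of -0.14. Acacb, the carboxylase at the mitochondrial surface whose product restrains fatty acid oxidation, had 53 counts in the Pink1 siRNA library and 65 in the control siRNA library. Acaca overlaps Tada2a by 10 bases on the opposite strand (627 counts in the Pink1 siRNA library and 555 in the control siRNA library). The carboxylase intervals included 1, and so did that of Acly.

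Acss2, the cytosolic enzyme that makes acetyl-CoA from acetate, was furthest from 1 in this group, at 6.14 CPM in the Pink1 siRNA library and 8.07 CPM in the control siRNA library. Its ratio of 0.762 came from 86 counts in the Pink1 siRNA library and 113 in the control siRNA library, and its counting interval of 0.568 to 1.02 included 1. Me1, the malic enzyme that supplies NADPH for chain building, went the other way, with 789 counts in the Pink1 siRNA library and 751 in the control siRNA library (log2 ratio 0.07). Acss1, the mitochondrial acetate enzyme, had 0 counts in the Pink1 siRNA library and 1 in the control siRNA library, which allows no fold. At this depth a gene with no count could still have a level of up to 0.214 CPM in either library (3 counts).

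All 4 measured desaturase genes had ratios below 1, and together they took 334 CPM in the Pink1 siRNA library and 385 CPM in the control siRNA library, a summed ratio of 0.869 (counting interval 0.835 to 0.904). Scd2, a stearoyl-CoA desaturase that puts the first double bond into saturated chains, had 154 CPM in the Pink1 siRNA library and 187 CPM in the control siRNA library. Its log2 ratio was -0.28, and 30 of the 583 genes of its level were as low or lower. Its widened interval of 0.586 to 1.15 included 1. Scd1, the isoform best known from adipose tissue and liver, was nearer to 1, with 1234 counts in the Pink1 siRNA library and 1303 in the control siRNA library (log2 ratio -0.08). Scd2 thus held 63.7% of the counts of this pair in the Pink1 siRNA library (exact interval 62.0 to 65.3%) and 66.8% in the control siRNA library (65.3 to 68.3%). The genes are close paralogs, and how shared reads were placed is not given in the sources used here. Fads1, the delta-5 desaturase of polyunsaturated fatty acids, had 625 counts in the Pink1 siRNA library and 739 in the control siRNA library, a log2 ratio of -0.24. Fads3 had 646 counts in the Pink1 siRNA library and 698 in the control siRNA library (log2 ratio -0.11). Fads2, the delta-6 desaturase, was not measured, with 15 counts in the Pink1 siRNA library and 23 in the control siRNA library.

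Elongases were mixed, and their summed level was close to equal, at 249 CPM in the Pink1 siRNA library and 246 CPM in the control siRNA library. Elovl6, which lengthens the palmitate that fatty acid synthase makes, had 324 counts in the Pink1 siRNA library and 393 in the control siRNA library, a ratio of 0.825 (counting interval 0.710 to 0.958). Elovl5, which lengthens polyunsaturated chains, lay on the other side of 1, with 1341 counts in the Pink1 siRNA library and 1215 in the control siRNA library (ratio 1.10, 1.02 to 1.19). Elovl1, which extends very long saturated chains, had the highest 3′ tag level of the family, at 127 CPM in the Pink1 siRNA library and 129 CPM in the control siRNA library. Elovl1 overlaps Cdc20 by 53 bases on the opposite strand, and Cdc20 had 1178 counts in the Pink1 siRNA library and 1446 in the control siRNA library, so the counts of Elovl1 are uncertain. The widened intervals of all 3 included 1. Elovl4 had 20 counts in the Pink1 siRNA library and 19 in the control siRNA library. Elovl7 had 25 counts in the Pink1 siRNA library and 6 in the control siRNA library, a ratio of 3.92 with 0.5 added (counting interval 1.67 to 12.4), and neither of these 2 genes was measured.

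All 4 long-chain acyl-CoA synthetases had ratios below 1, and the widened intervals of all 4 included 1. Their summed level was 290 CPM in the Pink1 siRNA library and 353 CPM in the control siRNA library. The summed ratio was 0.823, with an interval of 0.790 to 0.858 that covers counting error only. Acsl1, the main synthetase of fat cells, had 1965 counts in the Pink1 siRNA library and 2571 in the control siRNA library. Its ratio was 0.764 (counting interval 0.720 to 0.811), and 8 of the 583 genes of its level, itself included, were as low or lower. The widened interval of 0.538 to 1.08 included 1. Acsl3, which works at the endoplasmic reticulum and on lipid droplets, had 680 counts in the Pink1 siRNA library and 812 in the control siRNA library (log2 ratio -0.26). Acsl4, which prefers arachidonate, and Acsl5 had log2 ratios of -0.11 and -0.17, with counting intervals that included 1. Acsl1 held 48.3% of the family's counts in the Pink1 siRNA library (exact interval 46.8 to 49.9%) and 52.0% in the control siRNA library (50.6 to 53.4%). Acsl3 shares 9777 bases with Utp14b on the same strand (105 counts in the Pink1 siRNA library and 114 in the control siRNA library), so a few of its reads may belong to that gene.

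**Figure D3:**
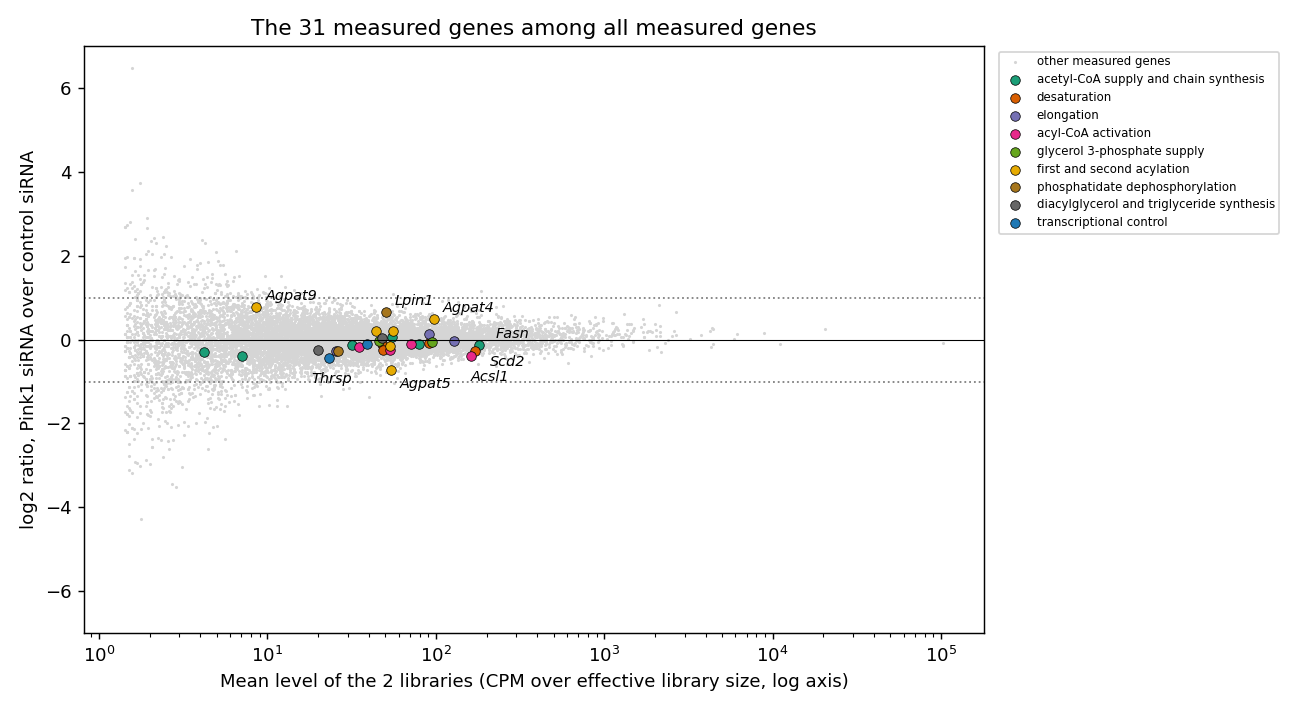
log2 ratio of Pink1 siRNA over control siRNA against the mean level of the 2 libraries (CPM over effective library size, log axis) for all 11660 measured genes (grey) and the 31 described here (coloured by role). Most coloured points sit just under 0, Lpin1, Agpat4 and Agpat9 sit high in the cloud at their level, and Agpat5 low in it.

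The glycerol 3-phosphate dehydrogenase genes each had nearly equal levels in the 2 libraries. Gpd1, the cytosolic dehydrogenase that makes it from a glycolytic intermediate, had 637 counts in the Pink1 siRNA library and 654 in the control siRNA library. Gpd2, the mitochondrial enzyme of the glycerophosphate shuttle, had 1300 counts in the Pink1 siRNA library and 1343 in the control siRNA library. The log2 ratios were -0.04 for Gpd1 and -0.05 for Gpd2, and both counting intervals of the ratio included 1.

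The acyltransferases that load the first and second chains held the widest range, with log2 ratios between -0.71 and 0.77 among 6 measured genes and 4 ratios above 1. Agpat5, an acylglycerolphosphate acyltransferase reported at mitochondria in human cells, was the lowest of all 31 genes, at 41.1 CPM in the Pink1 siRNA library and 67.5 CPM in the control siRNA library (576 and 945 counts). Its level was 1.64-fold lower (ratio 0.610), with a counting interval of 0.549 to 0.677 and a widened interval of 0.428 to 0.862. Of the 583 genes of its level, 3 were as low or lower, itself included. Agpat4, an acyltransferase of the same family that is abundant in the mouse brain, was higher, at 114 CPM in the Pink1 siRNA library and 80.9 CPM in the control siRNA library (1599 and 1133 counts). Its ratio was 1.41 (counting interval 1.31 to 1.52, widened interval 1.05 to 1.91), and 13 of the 583 genes of its level had a ratio as high or higher. Agpat5 lies on chromosome 8 from 18846279 to 18884413 and Agpat4 on chromosome 17 from 12118485 to 12219649 (mm10), and neither overlaps another measured gene.

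The other members of the Agpat family were closer to 1. Agpat2, the isoform whose loss causes congenital lipodystrophy in people, had 710 counts in the Pink1 siRNA library and 785 in the control siRNA library (log2 ratio -0.14). Agpat1, a broadly expressed isoform, had 836 counts in the Pink1 siRNA library and 725 in the control siRNA library (log2 ratio 0.21). It overlaps Egfl8 by 101 bases on the opposite strand, and Egfl8 had a log2 ratio of 0.27, so the counts of Agpat1 are uncertain. Agpat3 had 662 counts in the Pink1 siRNA library and 571 in the control siRNA library (log2 ratio 0.21). The widened intervals of Agpat1, Agpat2 and Agpat3 included 1.

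The make-up of the Agpat family differed between the libraries while its total did not by much, at 4383 counts in the Pink1 siRNA library and 4159 in the control siRNA library. Agpat4 made up 36.5% of these counts in the Pink1 siRNA library (exact interval 35.1 to 37.9%) and 27.2% in the control siRNA library (25.9 to 28.6%). Agpat5 made up 13.1% in the Pink1 siRNA library (12.2 to 14.2%) and 22.7% in the control siRNA library (21.5 to 24.0%). These shares compare 3′ tags, whose number is not expected to scale with transcript length, and their intervals cover counting error only.

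**Figure D4:**
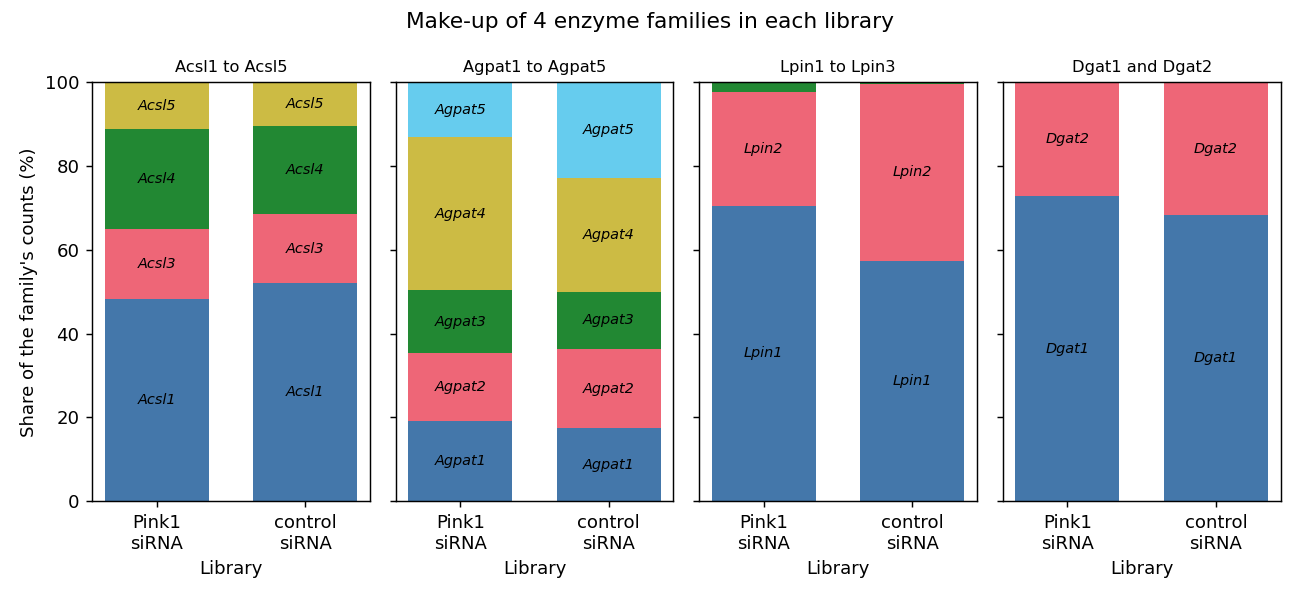
Share of each family's counts (percent, stacked to 100) held by its members in the Pink1 siRNA library (left bar) and the control siRNA library (right bar), for the Acsl, Agpat, Lpin and Dgat genes, 1 library each. Agpat4 takes 36.5% with Pink1 siRNA and 27.2% with control siRNA, Agpat5 13.1% with Pink1 siRNA and 22.7% with control siRNA, and Lpin1 70.6% with Pink1 siRNA and 57.4% with control siRNA.

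The listed glycerol 3-phosphate acyltransferases, Agpat9 and Gpam, which add the first chain, had low counts. Agpat9, now named Gpat3, encodes an enzyme of the endoplasmic reticulum. It was at 10.9 CPM in the Pink1 siRNA library and 6.35 CPM in the control siRNA library (152 and 89 counts). Its log2 ratio of 0.77 was the highest of the 31, and 30 of the 583 genes of its level had a ratio as high or higher. The counting interval of 1.31 to 2.24 lay above 1 and the widened interval of 0.828 to 3.67 included it. Agpat9 overlaps Fam175a by 200 bases on the opposite strand, and Fam175a had 149 counts in the Pink1 siRNA library and 158 in the control siRNA library. Gpam, the mitochondrial enzyme for this step, was not measured, with 16 counts in the Pink1 siRNA library and 11 in the control siRNA library.

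The lipins, which turn phosphatidate into diacylglycerol, lay on both sides of 1. Lpin1, the lipin needed for fat cell development in mice, was at 61.8 CPM in the Pink1 siRNA library and 38.98 CPM in the control siRNA library (865 and 546 counts). The ratio of 1.58 had a counting interval of 1.42 to 1.77 and a widened interval of 1.11 to 2.29, and 3 of the 583 genes of its level, itself included, had a ratio as high or higher. The gene lies on chromosome 12 from 16535669 to 16653903 and overlaps no other measured gene. Lpin2 had 334 counts in the Pink1 siRNA library and 401 in the control siRNA library, a ratio of 0.833 (counting interval 0.718 to 0.966, widened 0.541 to 1.28). Lpin3 was not measured, with 27 counts in the Pink1 siRNA library and 4 in the control siRNA library (counting interval of the ratio 2.35 to 26.5). Lpin1 made up 70.6% of lipin counts in the Pink1 siRNA library (exact interval 67.9 to 73.1%) and 57.4% in the control siRNA library (54.2 to 60.6%), and the summed lipin ratio was 1.29 (1.18 to 1.40).

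The last step to triglyceride showed smaller differences. Dgat1 had 678 counts in the Pink1 siRNA library and 657 in the control siRNA library, a ratio of 1.03 (counting interval 0.926 to 1.15). Dgat2, the enzyme that mostly serves newly made fatty acids, had 254 counts in the Pink1 siRNA library and 304 in the control siRNA library, a ratio of 0.836 (0.705 to 0.990). Dgat1 made up 72.7% of the counts of the pair in the Pink1 siRNA library (exact interval 69.8 to 75.6%) and 68.4% in the control siRNA library (65.3 to 71.3%), and these intervals overlap. Mogat1, a monoacylglycerol acyltransferase, had 3 counts in the Pink1 siRNA library and 0 in the control siRNA library, which gives no fold.

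The 2 measured regulators of the pathway, Srebf1 and Thrsp, had ratios below 1, with widened intervals that included 1. Srebf1, which encodes the SREBP-1 factors, had 527 counts in the Pink1 siRNA library and 565 in the control siRNA library (ratio 0.933, counting interval 0.827 to 1.05). It overlaps Rai1 by 114 bases on the opposite strand, and Rai1 had a log2 ratio of 0.07. Thrsp, the Spot 14 protein that responds to thyroid hormone and carbohydrate, was at 19.8 CPM in the Pink1 siRNA library and 26.7 CPM in the control siRNA library. Its ratio of 0.741 (counting interval 0.632 to 0.868, widened 0.465 to 1.17) was the lowest of the 31 after that of Agpat5. Mlxipl, the gene of ChREBP, was at 8 counts in the Pink1 siRNA library and 10 in the control siRNA library and was not measured.

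Other genes linked to these factors, as regulators, partners or relatives, lay about evenly around a ratio of 1. Of 26 listed genes of SREBP, LXR and ChREBP control, 25 were measured, 12 with a ratio below 1, and their median log2 ratio was 0.02. The largest in size were Srebf2 (492 counts in the Pink1 siRNA library and 366 in the control siRNA library, log2 ratio 0.43), the site-2 protease gene Mbtps2 (-0.41), the SREBP retention factor Insig1 (-0.34) and the nuclear receptor Rxra (0.32), and all 4 widened intervals included 1. Of 25 sterol genes that SREBP-2 controls, 24 were measured and 12 had a ratio below 1, with a median of -0.02. By the rule of size 0 of them were higher and 1 lower. That gene, Tm7sf2, had 11 counts in the Pink1 siRNA library and 38 in the control siRNA library (counting interval of the ratio 0.133 to 0.578, widened 0.0279 to 1.57), and it overlaps Vps51 by 9 bases. Mbtps2 overlaps Yy2, which makes its counts uncertain too. Stard4, a sterol carrier, had a log2 ratio of -0.89 and the mevalonate kinase gene Mvk 0.40, with widened intervals that included 1.

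Other acyl-CoA synthetases, of which 7 of 18 were measured, had a median log2 ratio of -0.07, with 4 ratios below 1. The mitochondrial synthetase Acsf2 was higher by the rule of size, with 100 counts in the Pink1 siRNA library and 20 in the control siRNA library (ratio 4.90, counting interval 3.07 to 8.54, widened 1.35 to 29.5). Slc27a3 (log2 ratio 0.88), Acsf3 (0.68) and Acsm3 (-0.31), which overlaps Eri2, had widened intervals that included 1. Of 22 listed enzymes that complete elongation and desaturation or make fatty acids in mitochondria, 16 were measured, 6 with a ratio below 1, and the median was 0.08. Oxsm, the mitochondrial ketoacyl synthase, was higher by the rule, with 94 counts in the Pink1 siRNA library and 43 in the control siRNA library, and it overlaps Ngly1 (218 counts in the Pink1 siRNA library and 200 in the control siRNA library). Its widened interval of 0.775 to 7.03 included 1. Mecr, the reductase of that pathway, had a log2 ratio of -0.54, the dehydratase Hacd2 0.37 and the citrate carrier Slc25a1 0.34.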

How the data were processed

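Polyadenylated 3′ ends were sequenced in 2 libraries of 3T3-L1 cells, 1 from Pink1 siRNA and 1 from control siRNA, made with a QuantSeq kit from total RNA, per the labels' protocols. The authors deposited a raw read count for each gene symbol. The submitters' processing notes name Bowtie2, bedtools and bcl2fastq (2.20.0.422), and mm10 as the genome. For annotation, strand use and multiply mapped reads, the sources used here give nothing, and no molecular identifiers are mentioned.

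Effective library sizes came from the TMM method (edgeR 4.0.16, R 4.3.3). Each log2 ratio divides the Pink1 siRNA value by the control siRNA value, after 0.5 is added to both scaled counts. Ratio intervals were exact conditional binomial (Clopper-Pearson, 95%, SciPy 1.17.1), and shares had exact binomial intervals. With 1 library per group no p-value was computed. The ratios and calls were also run on counts simulated with counting error alone. Such counts lack the excess spread of these libraries, so that run does not show how the calls behave under it. Gene spans came from RefSeq GRCm38.p6 and strands from GENCODE M21. The 39 genes and all lists were chosen with earlier results of these data known. All 39 are named or counted, and of each other list the up to 4 measured genes with the largest log2 ratio in size. Agpat6 is named besides these. Of the tables' rows, 79 shared a symbol, none of them listed here. The 12 alternatives were other scalings, another added count, other count minimums, other sizes and intervals, and leaving out 6 overlapping genes.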

Additional observations from a re-analysis of the deposited data

How the results depend on the processing

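The count of ratios below 1 and the median log2 ratio kept their direction under the 8 alternatives that bear on them. The median of the measured genes lay between -0.15 (total counts) and -0.11, and no measured gene changed the sign of its log2 ratio under the 5 alternatives of scaling or added count. The summed ratio moved to 0.918 with total counts, which is outside its reported counting interval of 0.930 to 0.962. The number of genes higher was 2 with no filter (Elovl7 and Lpin3), 2 at a ratio of 1.5 and 3 at a ratio of 5 to 4, and the number lower was 1 at a ratio of 1.5 and 3 at a ratio of 5 to 4. At 5 to 4, 13.7% of all measured genes were higher and 14.3% lower, above the share of the 31 either way. Scaling by total counts lowered the median of all measured genes by 0.04 on the log2 scale. No paired analysis was possible because each group has 1 library. Without replicates, spread between cultures was not measured. Counts under 40 limit 8 genes, among them Gpam, Mlxipl and Fads2.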

Other observations

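The phospholipid branch, which draws on the same phosphatidate and diacylglycerol, lay near a ratio of 1. Of 30 listed genes 25 were measured, 10 with a ratio below 1, and the median log2 ratio was 0.02. By the rule of size 0 were higher and 0 lower. Mboat7, which puts arachidonate into phosphatidylinositol, had 613 counts in the Pink1 siRNA library and 396 in the control siRNA library (ratio 1.55, counting interval 1.36 to 1.76, widened 1.03 to 2.35), and it overlaps Tsen34 (732 counts in the Pink1 siRNA library and 792 in the control siRNA library). The choline phosphotransferase Chpt1, which overlaps Sycp3, had a log2 ratio of -0.39, the choline kinase Chka -0.34 and the mitochondrial CDP-diacylglycerol synthase Tamm41 0.33.

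Of 22 other glycerolipid acyltransferases, phosphatases, kinases and lipin regulators in the tables, 13 were measured, with a median log2 ratio of 0.01. Dgka, a kinase that turns diacylglycerol back into phosphatidate, was higher by the rule of size, with 131 counts in the Pink1 siRNA library and 46 in the control siRNA library (ratio 2.83, counting interval 2.02 to 4.08, widened 1.18 to 7.76). It overlaps Pmel by 108 bases, and Pmel had 127 counts in the Pink1 siRNA library and 48 in the control siRNA library, so the reads of the pair may not be separable. Dgke, another diacylglycerol kinase, had a log2 ratio of -0.61. Cnep1r1, a regulatory subunit of the phosphatase that activates lipins, had 730 counts in the Pink1 siRNA library and 939 in the control siRNA library (log2 ratio -0.36, widened interval of the ratio 0.536 to 1.12). The lipid phosphate phosphatase Ppap2a, which overlaps Skiv2l2, had a log2 ratio of 0.26.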
